A study of Mus musculus with 10 samples.

Results

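The genes of the core and regulatory splicing factor families were followed from the mouse oocyte to the 4-cell embryo, with and without Ago2. The members are every row of the expression table whose gene name begins with Snrp, with Sf3a or Sf3b and a digit, with Srsf and a digit, with Prpf and a digit, or with Hnrnp. That gave 62 of 21437 genes, namely 13 Snrp, 8 Sf3, 10 Srsf, 13 Prpf and 18 Hnrnp genes. The rule reads names only, so no measured value chose a member. In the GENCODE M21 annotation of the GRCm38 build, 61 of them are protein-coding, whereas Snrpert (chromosome 2, 131322088 to 131322366, minus strand) is a processed pseudogene of Snrpe and not a splicing factor gene. Of the 62 members, 55 reached at least 1 FPKM in at least 2 libraries and were tested.

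RNA-seq covered 3 time points, the MII oocyte, the middle 2-cell stage and the early 4-cell stage, placed by the Methods at 16 h, 40 h and 55 h after hCG. Each of the 5 groups has 2 libraries: MII oocyte control, 2-cell control, 2-cell Ago2 kd, 4-cell control and 4-cell Ago2 kd. The labels give strain ICR for every sample, genotype wild type for the controls and Ago2-kd for the knockdown embryos, and females of 7 weeks of age as embryo donors. The Methods give ICR females for the oocytes but F1 by F1 crosses for the embryos, so strain and stage cannot be told apart between oocyte and embryo. Knockdown was done by injecting zygotes with siRNA against Ago2 together with AGO2 antibodies, and the Methods name a scrambled siRNA as negative control without saying whether the control embryos of these libraries received it. Ago2 itself is not analysed here. Nothing in the labels says that the 2 replicates of a group are separate batches of animals, so the p-values measure the spread between libraries, which may be technical.

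Values are FPKM, a read level corrected for transcript length and for library size, summed over a library to 178681 to 458874. The read depth behind them is unknown, so no counting error can be given, and each value is set beside its replicate. Between 40.2% and 52.2% of the 21437 genes were listed at exactly 0 in a library. Genes that every cell uses were among them, such as Sf3b3, a core subunit of the U2 particle, at 0 in all 10 libraries, so a 0 is written here as "listed at 0" and not as absence. The stage labels were checked with marker genes. Oocyte markers summed to 13663 and 15890 FPKM in MII oocytes and to between 7.12 and 41.3 FPKM in 4-cell libraries. Of 18 markers of the 2-cell stage 12 were in the table, and their sum was highest in the 2-cell libraries, at 400.4 to 955 FPKM. Among the 9 tested, 7 rose from oocyte to 2-cell control and 7 fell from 2-cell to 4-cell control. Not all did: Eif1a was listed at 0 in every 2-cell library and at 62.0 and 47.6 FPKM in 4-cell controls. Tdpoz4 was higher in 4-cell than in 2-cell controls, and Tcstv1 higher in oocytes than in 2-cell controls. Of 18 cumulus and granulosa cell markers, 8 were in the table, and all 8 were listed at 0 in both oocyte libraries. Their sum was at most 5.63 FPKM in 2-cell libraries and 54.3 to 163 FPKM in 4-cell libraries, where Gja1, a gap junction gene, made up 52.2 to 161 FPKM. In those libraries Kitl was at 0 to 3.84 FPKM, Amhr2 at 0 to 1.75 FPKM, Areg at most 0.715 FPKM and Col1a1 at most 0.0319 FPKM, and Foxl2, Pdgfra and Vim were listed at 0. Their part in the 4-cell results was not tested.

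Splicing removes introns from pre-mRNA in the spliceosome, which assembles on each intron from small nuclear ribonucleoproteins (snRNPs). Snrp genes encode the Sm ring shared by the snRNPs and the proteins specific to the U1 and U2 particles, and Sf3a and Sf3b genes encode the U2 subunits that hold the branch point. Prpf genes encode factors of the U4/U6.U5 tri-snRNP and of later steps, Srsf genes the serine- and arginine-rich proteins that mark exons, and Hnrnp genes the proteins that coat nascent RNA and often oppose them. A fully grown oocyte is transcriptionally silent and lives on stored maternal mRNA, which is cleared while the embryonic genome is switched on in the 2-cell embryo. AGO2 is the Argonaute protein that cuts or represses RNAs matched by small RNAs.

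Later values turn on 3 genes, Hnrnpab, Srsf2 and Prpf4, which were the members called lower in 4-cell embryos after Ago2 kd, and their promoter sequences are shown for that reason. Each run is 300 bases of the GRCm38.p6 RefSeq assembly, from 250 bases before to 50 bases after the annotated start, written 5′ to 3′ on the strand of the gene. Capitals mark matches, on either strand, to 3 motifs, the CCAAT box, the GC box GGGCGG and the TATA box TATAAA.
Hnrnpab (chr11:51606832-51607131, minus strand): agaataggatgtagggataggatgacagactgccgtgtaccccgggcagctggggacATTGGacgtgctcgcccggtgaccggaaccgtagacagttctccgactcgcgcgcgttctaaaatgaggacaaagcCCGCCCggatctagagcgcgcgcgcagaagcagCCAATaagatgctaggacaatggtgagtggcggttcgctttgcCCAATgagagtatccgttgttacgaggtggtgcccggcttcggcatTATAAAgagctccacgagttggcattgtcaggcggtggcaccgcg
Srsf2 (chr11:116853045-116853344, minus strand): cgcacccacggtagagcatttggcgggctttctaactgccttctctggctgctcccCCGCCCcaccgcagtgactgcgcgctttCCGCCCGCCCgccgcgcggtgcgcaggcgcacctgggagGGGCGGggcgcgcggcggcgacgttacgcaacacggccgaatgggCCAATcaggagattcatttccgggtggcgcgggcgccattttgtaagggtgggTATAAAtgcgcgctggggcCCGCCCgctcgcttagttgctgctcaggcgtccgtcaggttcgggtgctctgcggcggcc
Prpf4 (chr4:62408533-62408832, plus strand): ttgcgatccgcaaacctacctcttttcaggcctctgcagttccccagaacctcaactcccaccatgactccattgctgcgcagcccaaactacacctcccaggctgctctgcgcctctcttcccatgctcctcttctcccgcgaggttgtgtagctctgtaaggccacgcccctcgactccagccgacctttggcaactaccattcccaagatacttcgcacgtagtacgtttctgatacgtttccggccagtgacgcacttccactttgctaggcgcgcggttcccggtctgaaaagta
The Hnrnpab and Srsf2 promoters both hold a CCAAT box close to the start, at position -84 and -82 of its first base. Srsf2 has TATAAA at -29 and 5 GC boxes, of which those at -166 and -162 overlap each other. Hnrnpab has a GC box at -117, TATAAA at position 6, after the annotated start, and further CCAAT boxes at -193 (on the opposite strand) and -41. Prpf4 holds none of these letters in this window.

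Promoters of 53 of the 62 members were in the RefSeq table, and they were searched on both strands together with those of 9203 protein-coding genes of the expression table. CCAAT was found in 26 of 53 members (49.1%) and in 39.7% of all these promoters. The ETS core CCGGAAGT was found in 10 of 53 (18.9%) and in 7.83% of all, in Snrpe, Sf3a1, Sf3a3, Sf3b2, Srsf4, Srsf5, Prpf4b, Prpf6, Hnrnpd and Hnrnpf. GGGCGG was found in 64.2% and 59.0%, TATAAA in 11.3% and 9.23%, and the YY1 motif AAGATGGC in 5.66% and 4.31%.  The median GC content was 59.0% in members and 59.7% in all. These are matches of letters, not sites of binding.

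The families rose as a share of the transcriptome between the 2-cell and the 4-cell stage. Together the 62 members held 0.653% and 0.569% of the summed FPKM in MII oocytes, 0.423% and 0.312% in 2-cell controls and 0.541% and 0.369% in 2-cell Ago2 kd embryos. In 4-cell controls they held 1.53% and 1.79%, and in 4-cell Ago2 kd embryos 1.31% and 1.08%. Every 4-cell library thus lay above every earlier library, and both 4-cell Ago2 kd libraries lay below both 4-cell controls. The order of the 4-cell libraries rested on Hnrnpab and Srsf2: without them, an alternative chosen after seeing the data, the controls held 1.18% and 1.35% and the Ago2 kd libraries 1.27% and 1.05%, so the groups overlapped. The number of members with at least 10 FPKM was 24 and 21 in MII oocytes, 14 and 15 in 2-cell controls, and 36 and 34 in 4-cell controls. It was 23 and 36 in the 4-cell Ago2 kd libraries, so that replicate 1 of this group stood apart. Hnrnp genes held most of the share in MII oocytes (0.489% and 0.397%), with Hnrnpk alone at 1225 and 889.6 FPKM. Srsf genes grew from 0.0307% and 0.0245% in 2-cell controls to 0.321% and 0.380% in 4-cell controls, and were at 0.188% and 0.182% in 4-cell Ago2 kd embryos. Most of that gap was Srsf2, since the other Srsf genes held 0.173% and 0.185% in 4-cell controls and 0.169% and 0.165% after Ago2 kd. In bulk samples a change in the number of cells that express a gene and a change in RNA per cell cannot be told apart.

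**Figure D1:**
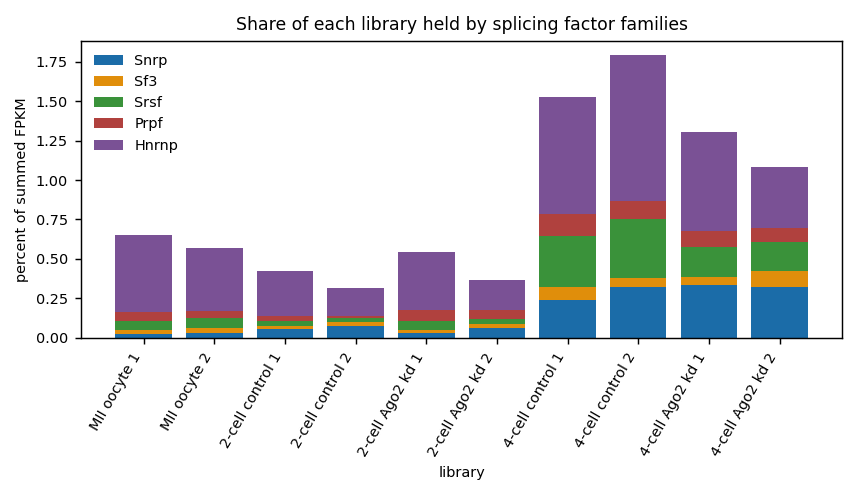
Percent of the summed FPKM (vertical axis) held by the Snrp, Sf3, Srsf, Prpf and Hnrnp genes in each of the 10 libraries (horizontal axis), with the families stacked from 0. The 4-cell bars, at 1.08% to 1.79%, stand above all 2-cell and MII oocyte bars, and the Srsf segment is shorter in both 4-cell Ago2 kd libraries than in the 4-cell controls, mostly through Srsf2.

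**Figure D2:**
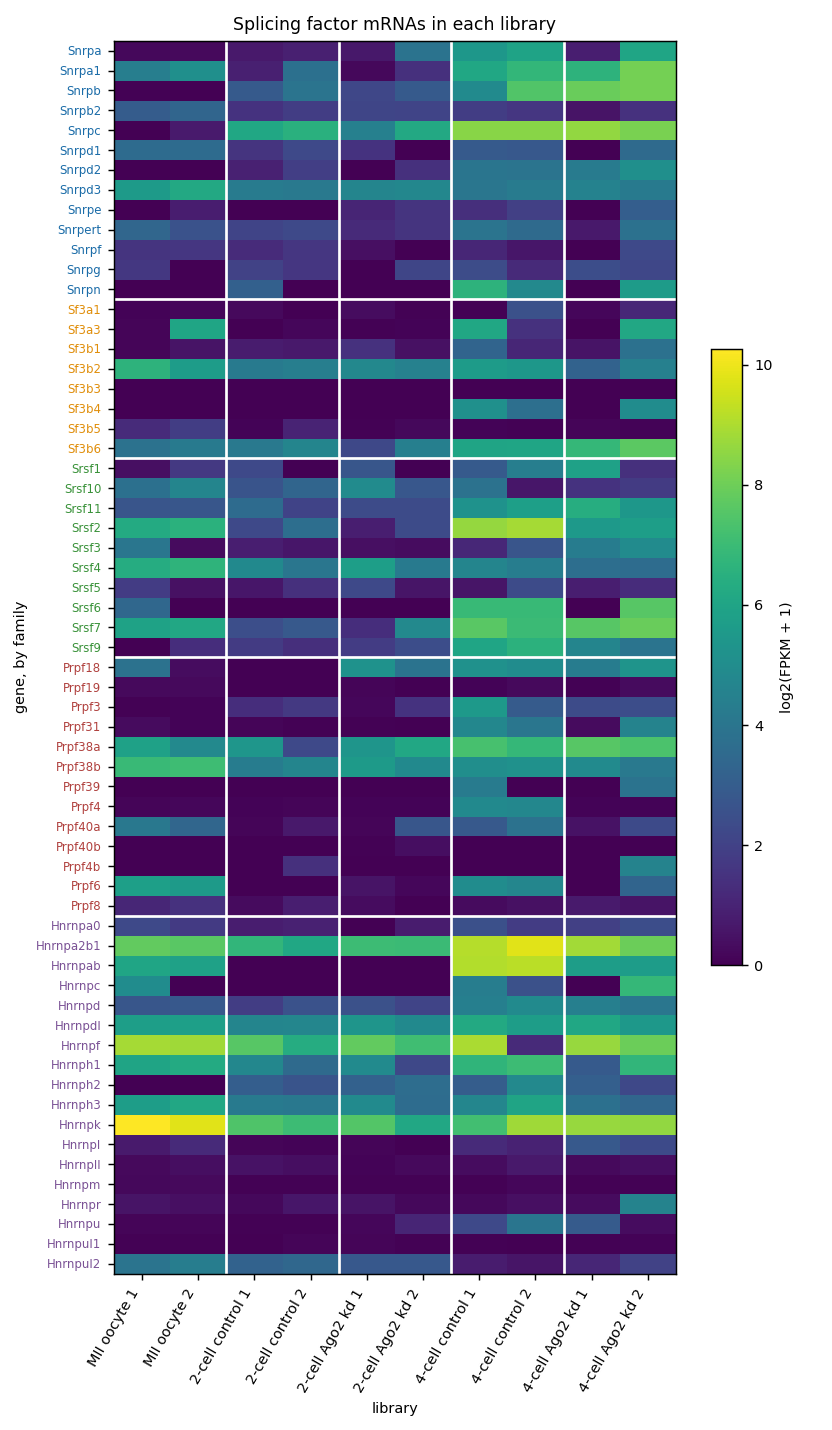
Level of all 62 members (rows, grouped by family and coloured by it) in the 10 libraries (columns), as log2(FPKM + 1) on the colour scale. Most rows brighten in the 4-cell columns, and the first 4-cell Ago2 kd column holds dark cells where the second does not.

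Among the 55 tested members the control stages followed few shapes. With a step of 1 on the log2(FPKM + 1) scale between group means, 17 members (30.9%) were lower in 2-cell than in MII oocyte and higher again in 4-cell, a shape seen in 10.2% of the 8726 genes tested. A further 16 (29.1%) were level and then higher, against 21.1% of all, 8 (14.5%) became lower and stayed so, against 11.8%, and 6 (10.9%) were higher at each step, against 6.36%. Only Hnrnpul2 was level and then fell (1.82%, against 12.4% of all). No member was higher by that step and then lower. The highest control mean was at the 4-cell stage in 36 of 55 members (65.5%, against 42.9% of all genes), in the MII oocyte in 18 (32.7%, against 37.7%) and at the 2-cell stage in 1, Prpf4b (1.82%, against 19.4%). The first and second step share the 2-cell control libraries, so a low value there makes both a fall and a rise. These shapes use FPKM without scaling. The summed FPKM was 450124 and 458874 in MII oocytes but 196312 and 203645 in 2-cell controls. At the same summed FPKM the median first step of the members was -0.14, against -0.85 without scaling. The shapes were not counted again at equal sums, so the number of falls may depend on scale.

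From MII oocyte to 2-cell control, 9 of 55 members were called lower and 3 higher by limma at a Benjamini-Hochberg adjusted p below 0.05. These are 16.4% and 5.45% of the members, against 14.2% and 6.54% of all genes tested, so the shares are near the background. The median difference was -0.85 in members and -0.06 in all genes, on the log2(FPKM + 1) scale used for every difference here. The groups did not overlap in 37 members, 29 below and 8 above, against 37% and 25% of all genes. The fall included members of each family: Snrpd3 and Snrpb2, Sf3b2, Srsf2 and Srsf4, Prpf6 and Prpf38b, and Hnrnpab and Hnrnpk. The rise comprised Snrpc, Snrpb and Hnrnph2.

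Hnrnpab, an RNA-binding protein of the hnRNP A/B type, was at 64.6 and 57.9 FPKM in MII oocytes and listed at 0 in both control and both Ago2 kd 2-cell libraries. Its difference was -5.96 ± 0.29 (SE, n = 2 a group, adjusted p = 9.15e-05). Prpf6, which bridges the snRNPs of the tri-snRNP, was at 55.1 and 47.4 FPKM in oocytes, listed at 0 in both 2-cell controls and at 0.475 and 0.121 FPKM in 2-cell Ago2 kd embryos (-5.70 ± 0.96, adjusted p = 0.00682). Against a group listed at 0 these differences depend on the added 1 and are not folds. Such a group also adds no spread to the shared estimate behind the SE and p. Prpf6 (chromosome 2, 181591868 to 181655660, plus strand) overlaps Samd10 on the other strand. Samd10 was at 0 and 0.0411 FPKM in oocytes, at 20.1 to 24.99 FPKM in the 2-cell libraries and listed at 0 in every 4-cell library, so it exceeded 1 FPKM only at the stage where Prpf6 was at most 0.475 FPKM. Whether the libraries keep the strand is not stated, and the part of this overlap in the result was not tested.

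Srsf2, an exon-marking SR protein, fell to 3.82 and 11.98 FPKM after 75.6 and 91.9 FPKM in oocytes (-3.41 ± 0.63, adjusted p = 0.00987). Hnrnpk, a poly(C)-binding protein and the most abundant member over the 5 groups, fell from 1225 and 889.6 to 170.4 and 130.9 FPKM (-2.80 ± 0.62, adjusted p = 0.0199). The Hnrnpk call was lost in limma when libraries were brought to the same sum, median or quantiles (adjusted p = 0.171, 0.128 and 0.187). It was also lost without any 1 of the 4 libraries compared. Under each of these scalings only Hnrnpab, Prpf6 and Srsf2 were still called lower. The other falls, Prpf38b among them, thus depended on scale too. The Srsf2 call was lost without MII oocyte replicate 1 or 2 (adjusted p = 0.0536 and 0.0663) and that of Prpf6 without MII oocyte replicate 1 (0.0525).

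Snrpc, the U1 protein that touches the 5′ splice site, was at 0 and 0.670 FPKM in the oocyte libraries, and reached 68.0 and 90.0 FPKM in 2-cell controls (5.94 ± 0.57, adjusted p = 0.000843). Snrpb, an Sm ring protein, was at 0.0365 and 0 FPKM in oocytes, against 6.42 and 14.2 FPKM in 2-cell controls (3.39 ± 0.83, adjusted p = 0.0291). Hnrnph2, a G-tract binding protein, was listed at 0 in both oocyte libraries and at 7.42 and 5.35 FPKM in 2-cell controls (2.87 ± 0.65, adjusted p = 0.0214). Oocytes and 2-cell controls did not overlap in any of the 3. Without any 1 of the 4 libraries compared the calls of Snrpb (adjusted p from 0.0594 to 0.146) and Hnrnph2 (from 0.0722 to 0.101) were lost, whereas that of Snrpc was kept in all 18 alternatives.

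The count of falls was the less firm side of this step. Scaling to the same summed FPKM moved the median of all genes from -0.06 to 0.24, and under each of 3 scalings 3 members were called lower and 3 higher, a split of 50% in place of 25% higher. The split of all genes moved as well. With the same sum, median and quantiles, 7.17%, 9.09% and 8.96% of all genes were lower and 10.9%, 9.31% and 8.1% higher. Without MII oocyte replicate 1, MII oocyte replicate 2 or 2-cell control replicate 1 the falls numbered 3, 5 and 5, and without any 1 of the 4 libraries compared 1 rise, Snrpc, passed.

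From 2-cell to 4-cell control, 22 of 55 members rose (40%) and 1 fell (1.82%), against 21.1% and 17.5% of all genes. The median difference was 2.13 in members and 0.24 in all genes. In 39 members both 4-cell controls lay above both 2-cell controls, against 38.4% of all genes, and in 3 below, against 30.2%. The rise covered 4 of 13 Snrp, 1 of 7 Sf3, 5 of 10 Srsf, 6 of 11 Prpf and 6 of 14 Hnrnp genes tested.

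Among the snRNP proteins, Snrpc rose further, to 348.7 and 349.1 FPKM (2.14 ± 0.57, adjusted p = 0.0248), and was the highest Snrp gene. Snrpb reached 28.7 and 178 FPKM (2.78 ± 0.83, adjusted p = 0.0364). Snrpa1, which binds the U2 RNA, was at 0.850 and 12.7 FPKM in 2-cell and 67.6 and 109 FPKM in 4-cell controls (adjusted p = 0.0179), and Snrpd2, an Sm ring protein, at 0.925 and 2.76 against 14.9 and 14.5 FPKM (adjusted p = 0.016). Of the other Sm ring genes none passed. Snrpn was at 7.93 and 0 against 97.3 and 27.5 FPKM (adjusted p = 0.12) and Snrpe at 0 in both against 1.64 and 2.89 FPKM (adjusted p = 0.199). Snrpd3 stood at 18.2 and 16.9 against 15.1 and 18.4 FPKM, and Snrpf and Snrpg stayed between 0.550 and 4.25 FPKM. The Sm ring takes 1 copy of each of its proteins. The 4-cell control means of these mRNAs ran from 0.841 FPKM for Snrpf to 103.6 FPKM for Snrpb. Protein was not measured, so these values do not give the amounts of the Sm proteins. Snrpa, a U1 protein, was at 42.1 and 60.9 FPKM in 4-cell controls after 0.630 and 0.857 FPKM, but its difference of 4.89 ± 1.68 did not pass (adjusted p = 0.0573). The 4-cell Ago2 kd libraries, which share the estimate of spread, held 0.824 and 65.3 FPKM of it.

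Of the Sf3 genes, Sf3b4 was listed at 0 in all MII oocyte and 2-cell libraries and at 34.6 and 12.4 FPKM in 4-cell controls (adjusted p = 0.0456). A near-identical copy, Gm7935, had a row of its own, with 97.2 and 114 FPKM in oocytes, 17.9 to 29.8 FPKM in the 2-cell libraries and 69.0 to 116 FPKM in 4-cell libraries. Reads of Sf3b4 and Gm7935 may be split between the rows, so the level of Sf3b4 is uncertain. Srsf5 is in the same position: it stood at 0.384 to 4.09 FPKM in the 10 libraries, while its near-identical copy Gm12966 held 70.4 to 546 FPKM. Sf3b6 and Sf3b2, the highest Sf3 genes, did not pass (adjusted p = 0.125 and 0.106), with Sf3b6 at 16.9 and 24.7 against 62.3 and 63.6 FPKM and Sf3b2 at 17.9 and 20.1 against 48.9 and 41.8 FPKM.

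The SR protein genes that rose were Srsf2, Srsf6, Srsf7, Srsf9 and Srsf11. Srsf2 went from 3.82 and 11.98 to 397 and 471 FPKM (5.78 ± 0.63, adjusted p = 0.0007). Srsf7 went from 4.58 and 6.35 to 200.1 and 127 FPKM (4.65 ± 1.0, adjusted p = 0.0108), and Srsf9 from 2.45 and 1.63 to 63.6 and 95.8 FPKM (4.71 ± 0.57, adjusted p = 0.00108). Srsf6 was listed at 0 in all 2-cell libraries and at 118 and 119 FPKM in 4-cell controls (6.90 ± 2.27, adjusted p = 0.0499). That call was kept in 6 of 18 alternatives and was lost without any 1 of the MII oocyte, 2-cell control, 2-cell Ago2 kd or 4-cell control libraries (adjusted p from 0.0735 to 0.153). Of the 10 Srsf genes, 9 have an annotated transcript that is a target of nonsense-mediated decay and 8 one with a retained intron, against 25.8% and 54.4% of the protein-coding genes in the table, and the FPKM do not tell these forms apart.

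The Prpf genes that rose were Prpf3, Prpf4, Prpf6, Prpf18, Prpf31 and Prpf38a, of which Prpf3, Prpf4, Prpf6 and Prpf31 are tri-snRNP proteins. Prpf4 was between 0.0592 and 0.140 FPKM in all MII oocyte and 2-cell libraries and at 28.3 and 26.0 FPKM in 4-cell controls (4.71 ± 0.25, adjusted p = 5.57e-05). Prpf6 returned to 31.0 and 25.2 FPKM (4.86 ± 0.96, adjusted p = 0.0077). Prpf18, a factor of the second catalytic step, was listed at 0 in 2-cell controls and at 35.4 and 30.4 FPKM in 4-cell controls (5.08 ± 1.09, adjusted p = 0.0108). It was at 13.6 and 0.270 FPKM in the oocyte libraries, and without 2-cell control replicate 1 or 4-cell control replicate 1 the call was lost (adjusted p = 0.0521 and 0.0548).

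Hnrnpab had the largest rise of the 55 members, from 0 in both 2-cell controls to 536 and 592 FPKM (9.14 ± 0.29, adjusted p = 1.85e-05). Hnrnpa2b1, which binds pre-mRNA and is transported with mRNA, went from 107 and 67.4 to 562 and 881 FPKM (3.03 ± 0.39, adjusted p = 0.00135). Hnrnpd, Hnrnpdl, Hnrnpl and Hnrnpu rose as well, by 0.97 to 3.05. Hnrnpul2 was the only member that fell, from 8.32 and 9.68 to 0.697 and 0.502 FPKM (-2.64 ± 0.42, adjusted p = 0.00318), after 14.5 and 19.2 FPKM in oocytes. Both 2-cell Ago2 kd libraries list it at the same value, 6.124441 FPKM. That group therefore adds no spread to the shared estimate behind this SE and p, and the reason was not tested. Hnrnpf could not be judged, with 502 FPKM in 4-cell control replicate 1 and 1.32 FPKM in replicate 2, between 81.8 and 465 FPKM in all other libraries. It has near-identical copies, of which Gm6430 has a row at 0.206 to 4.06 FPKM.

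The number of rises moved with the libraries and the filter. It was 9 and 12 without 2-cell control replicate 1 and 2, 12 and 11 without 4-cell control replicate 1 and 2, and 14 without either oocyte library. The falls numbered 2 without 4-cell control replicate 1.

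From MII oocyte to 4-cell control, 17 members were higher (30.9%) and 8 lower (14.5%), against 22% and 26.3% of all genes. The 8 lower members were Snrpb2, Snrpd3, Sf3b5, Srsf4, Prpf8, Prpf38b, Hnrnpk and Hnrnpul2. Prpf8, the core of the catalytic centre, was low throughout, at 1.18 and 1.74 FPKM in the oocyte against 0.248 and 0.383 FPKM in 4-cell controls. Scaled to the same summed FPKM, 19 members were higher and 1 lower, a split of 95% higher in place of 68%. Of all genes 25.3% were then higher and 19.7% lower. Without MII oocyte replicate 2 the counts were 10 and 3, without 4-cell control replicate 2 they were 10 and 5, and without MII oocyte replicate 1 there were 5 lower.

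**Figure D3:**
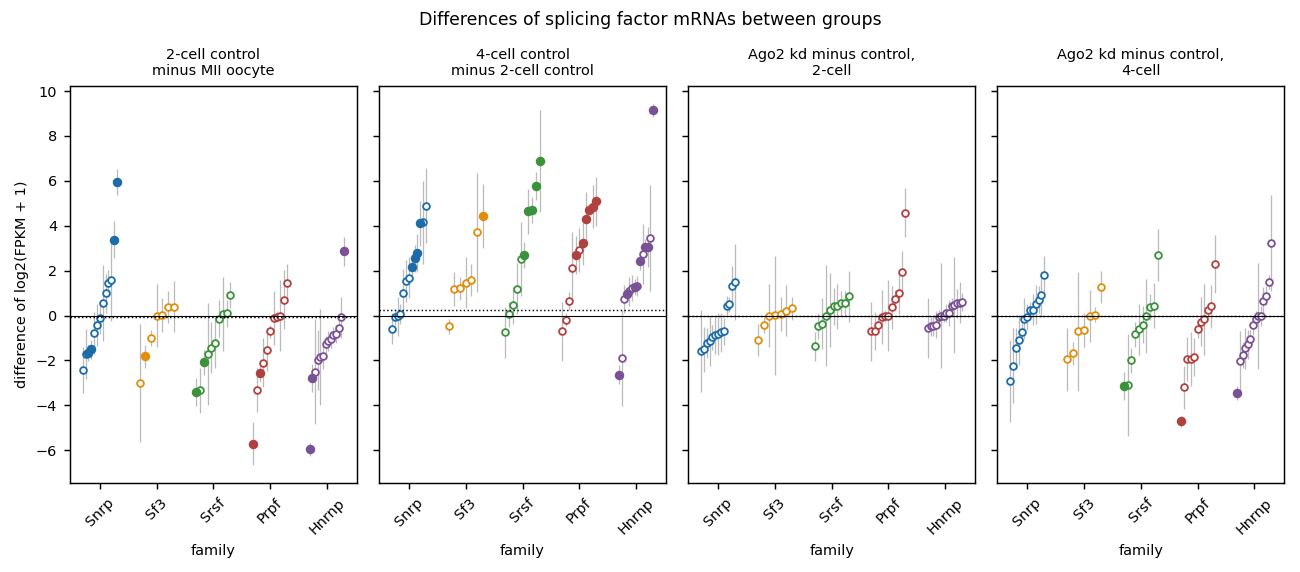
Difference of each tested member (points, by family, in ascending order) between the groups named above each panel, on the log2(FPKM + 1) scale with standard errors as bars. Filled points passed an adjusted p of 0.05 in limma, and the dotted line is the median of all 8726 genes. The second panel is shifted upwards, with 22 filled points above 0 and 1 below, while the 2-cell Ago2 kd panel has none and the 4-cell Ago2 kd panel has 3, all below 0.

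In 2-cell embryos, Ago2 kd moved none of the 55 members past an adjusted p of 0.05 in limma, against 0.332% of all genes higher and 0.218% lower. With p below 0.05 before adjustment, 1 member lay above and 0 below, against 2.96% and 3% of all genes. That member was Prpf18, listed at 0 in both 2-cell controls and, after Ago2 kd, at 36.7 and 14.1 FPKM (4.58 ± 1.09, adjusted p = 0.238). The oocyte libraries of Prpf18, 13.6 and 0.270 FPKM, span much of that range. Without MII oocyte replicate 2 its adjusted p was 0.0495, and over 18 alternatives it ranged from 0.0495 to 0.545. The median difference was 0 in members and in all genes. In 12 members both Ago2 kd libraries lay above both controls and in 8 below, against 14.4% and 14.7% of all genes. Hnrnpab was listed at 0 in both control and both Ago2 kd 2-cell libraries, Srsf2 was at 3.82 and 11.98 FPKM in controls and 0.810 and 4.10 FPKM in Ago2 kd embryos, and Prpf4 was below 0.1 FPKM in all of them. Unadjusted calls without 1 library reached 3 higher (2-cell Ago2 kd replicate 1 or 2) and 4 lower (2-cell Ago2 kd replicate 2) or 3 lower (2-cell control replicate 1). Leaving out 2-cell control replicate 1 or either 4-cell Ago2 kd library gave 2 higher, and leaving out either 4-cell Ago2 kd library gave 1 lower.

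In 4-cell embryos, 3 of the 55 members fell after Ago2 kd (5.45%) and 0 rose at an adjusted p of 0.05 in limma, against 2.77% and 1.23% of all genes. They were Prpf4, Hnrnpab and Srsf2, each of which rose from 2-cell to 4-cell control. The comparisons share the 4-cell control libraries, so the values of each are given side by side and no count over both is drawn. Prpf4 reached 1 FPKM only in the 2 libraries of the 4-cell control, so it passed the filter only through that group. Its rise, its fall after Ago2 kd and its interaction all rest on those libraries. At an unadjusted p below 0.05, 8 members lay lower and 1 higher, where 8.07% and 7.37% of all genes did. The median was -0.40 in members and 0 in all genes.

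Prpf4, the U4/U6 snRNP protein encoded on chromosome 4 (62408797 to 62426990), was at 28.3 and 26.0 FPKM in 4-cell controls and at 0.0778 and 0.0726 FPKM in 4-cell Ago2 kd embryos (-4.71 ± 0.25, adjusted p = 0.00022). The Ago2 kd values lay within the 0.0592 to 0.140 FPKM seen in oocytes and 2-cell embryos. Hnrnpab (chromosome 11, 51600100 to 51606847) was at 536 and 592 FPKM in controls and 50.8 and 50.3 FPKM in Ago2 kd embryos (-3.45 ± 0.29, adjusted p = 0.0011), close to but below its 64.6 and 57.9 FPKM in oocytes. Srsf2 (chromosome 11, 116849901 to 116853094) was at 397 and 471 FPKM in controls and 44.4 and 53.5 FPKM in Ago2 kd embryos (-3.12 ± 0.63, adjusted p = 0.0455), between its 2-cell values and its 75.6 and 91.9 FPKM in oocytes. In all 3 genes both Ago2 kd libraries lay below both controls, and the 2 Ago2 kd libraries lay close together.

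Prpf4 did not exceed 0.140 FPKM outside the 4-cell controls, and Hnrnpab was listed at 0 in every 2-cell library. Groups at or near 0 add almost no spread to the shared estimate, so the SE and p of both genes rest partly on them. The same holds for the stage steps of both genes. The calls of Prpf4 and Hnrnpab were kept in 17 of 18 alternatives and lost when only the 4 libraries of the 4-cell embryos were fitted (adjusted p = 0.212 and 0.157). That of Srsf2 was kept in 8 of 18, with adjusted p from 0.0296 to 0.159, and was lost without either oocyte library (0.105 and 0.106), either 4-cell control (0.114 and 0.159) or either 4-cell Ago2 kd library (0.113 and 0.0862). Genes on the other strand of Hnrnpab and Srsf2 were low: Phykpl did not exceed 0.640 FPKM, and Mettl23 and Mfsd11 stood between 0 and 4.77 FPKM in the 10 libraries. Prpf4 overlaps no other annotated gene.

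Of the members that passed only the unadjusted threshold, Hnrnpl, which binds CA repeats, was the 1 on the upper side, with 1.35 and 0.954 FPKM in controls and 6.22 and 3.96 FPKM in Ago2 kd embryos (1.48 ± 0.32, adjusted p = 0.0549). Prpf6 was at 31.0 and 25.2 FPKM in controls and at 0 and 8.92 FPKM in Ago2 kd embryos (-3.20 ± 0.96, adjusted p = 0.157). Srsf9 stood at 63.6 and 95.8 against 24.1 and 14.5 FPKM (adjusted p = 0.138), Sf3b2 at 48.9 and 41.8 against 8.41 and 21.0 FPKM (adjusted p = 0.162), and Hnrnpa2b1 at 562 and 881 against 461 and 250.3 FPKM (adjusted p = 0.258). Hnrnph3 was at 25.3 and 63.1 against 12.8 and 9.42 FPKM (adjusted p = 0.189). Other abundant members did not differ beyond their spread, among them Snrpc with 348.7 and 349.1 against 385 and 291 FPKM (-0.06 ± 0.57) and Srsf7 with 200.1 and 127 against 195 and 242 FPKM (0.44 ± 1.0). The groups did not overlap in 22 members, 13 with Ago2 kd below and 9 above, against 16.9% and 20.1% of all genes.

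**Figure D4:**
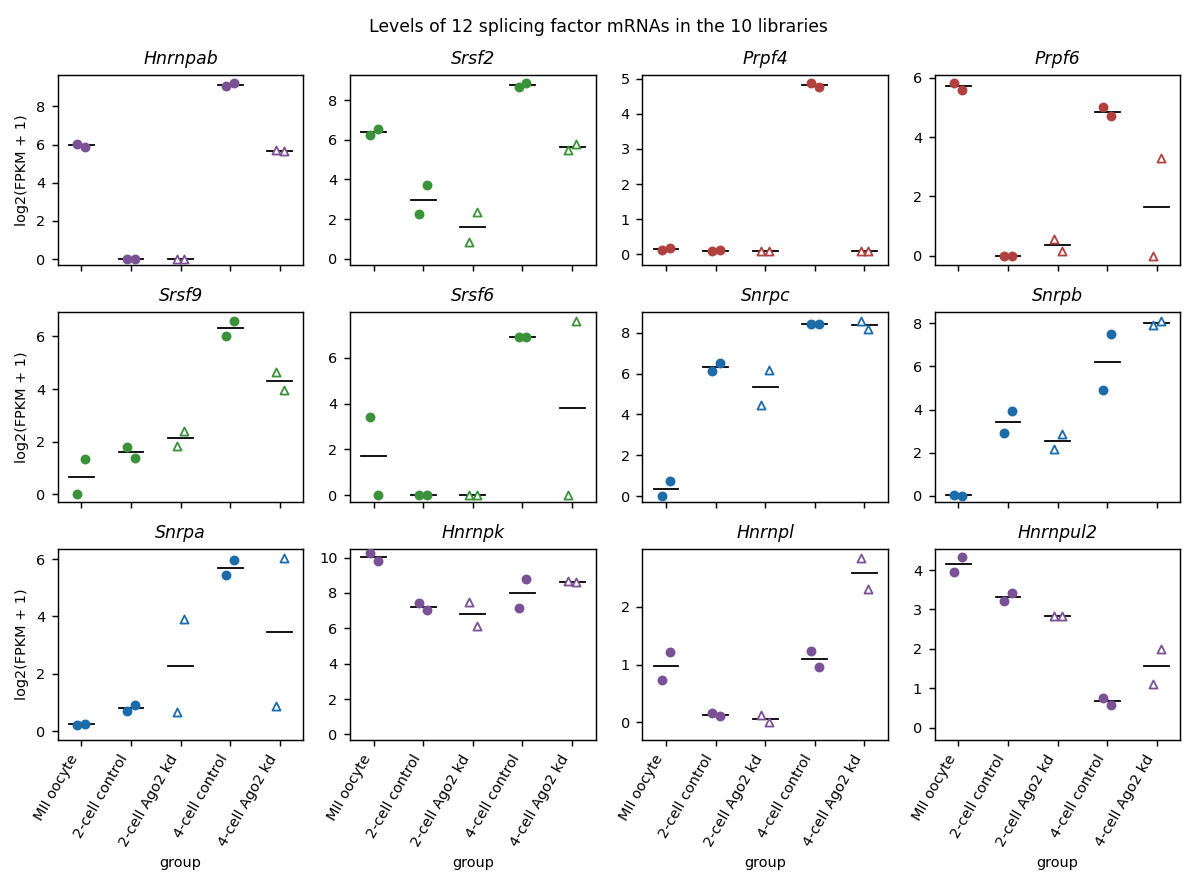
Level of 12 members in the 10 libraries on the log2(FPKM + 1) scale, each panel with its own vertical axis. Filled circles are control and open triangles Ago2 kd libraries, and the short bars are group means. Hnrnpab, Srsf2 and Prpf4 are high in both 4-cell controls and lower in both 4-cell Ago2 kd libraries, whereas the 4-cell Ago2 kd points of Srsf6, Snrpa and Prpf6 lie far apart.

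Subtracting the 2-cell from the 4-cell effect of Ago2 kd, the interaction term in limma, gave -4.69 ± 0.35 for Prpf4 (adjusted p = 0.00204) and -3.45 ± 0.41 for Hnrnpab (adjusted p = 0.00889). These are 2 of 55 members (3.64%) against 1.64% of all genes, and 0 were higher against 0.642%. At an unadjusted p below 0.05 the members numbered 8 lower (against 7.11% of all genes) and 1 higher, Hnrnpl (against 6.27%). Both genes were at or near 0 in all 2-cell libraries, so no fall could be measured there. For Srsf2 the interaction was -1.74 ± 0.89 (adjusted p = 0.472), so that a difference between the stages was not shown. Without 4-cell Ago2 kd replicate 2, 5 members were lower, and without 4-cell control replicate 1 or 4-cell Ago2 kd replicate 1, 1 was higher.

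The members differed more often between the 4-cell Ago2 kd replicates than between those of the other groups. In 16 of the 55 tested members (29.1%) the replicates differed by more than 3 on the log2 scale, against 9.68% of all genes. In the other groups such gaps were found in 2 to 5 members (3.64% to 9.09%), against 3.68% to 5.60% of all genes. In MII oocytes the members also exceeded all genes, with 9.09% against 3.68%. Of the 16 gaps, 15 had the lower value in replicate 1 and only Srsf1 (57.0 and 1.66 FPKM) in replicate 2. Srsf6 was listed at 0 in replicate 1 and at 194 FPKM in replicate 2. Hnrnpc, a core hnRNP particle protein, was at 0 and 114 FPKM, Sf3a3 at 0 and 69.8 FPKM, Snrpa at 0.824 and 65.3 FPKM, Snrpn at 0 and 48.2 FPKM, and Sf3b4 at 0 and 30.5 FPKM. Hnrnph1 and Prpf31 showed the same order, with 6.56 and 106 FPKM and 0.238 and 22.8 FPKM.

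Of the 36 members above 10 FPKM in replicate 2, 8 (22.2%) were below 0.1 FPKM in replicate 1, as were 14.6% of all genes. Across the other libraries at most 1 member was lost in this way. Replicate 1 did hold other members at high levels, such as Snrpc at 385, Hnrnpf at 407.5 and Hnrnpa2b1 at 461 FPKM, and mitochondrial genes took 11.1% and 13.0% of the summed FPKM in replicates 1 and 2, against 10.8% and 5.22% in the controls. The part of these differences in the comparison was not tested.

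The direction of the 4-cell comparison as a whole rested on this library. Without 4-cell Ago2 kd replicate 1 the median of the members was 0.09, with 25 below and 30 above 0, and 2 members, Prpf4 and Hnrnpab, were called lower and 1, Prpf4b, higher at an adjusted p of 0.05. Without replicate 2 the median was -0.79, and 8 members were lower (Prpf4, Hnrnpab, Prpf6, Prpf31, Sf3b2, Sf3b4, Srsf6 and Snrpert) and 1, Hnrnpl, was higher. Prpf4b was listed at 0 in both 4-cell controls and in replicate 1 and at 22.8 FPKM in replicate 2. Without 4-cell control replicate 1, 1 member was called higher. At an unadjusted p the higher members were 5 without replicate 1, 3 without 4-cell control replicate 2, and 2 without either oocyte library, either 2-cell Ago2 kd library or 4-cell control replicate 1, and the lower members were 16 without replicate 2.

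**Figure D5:**
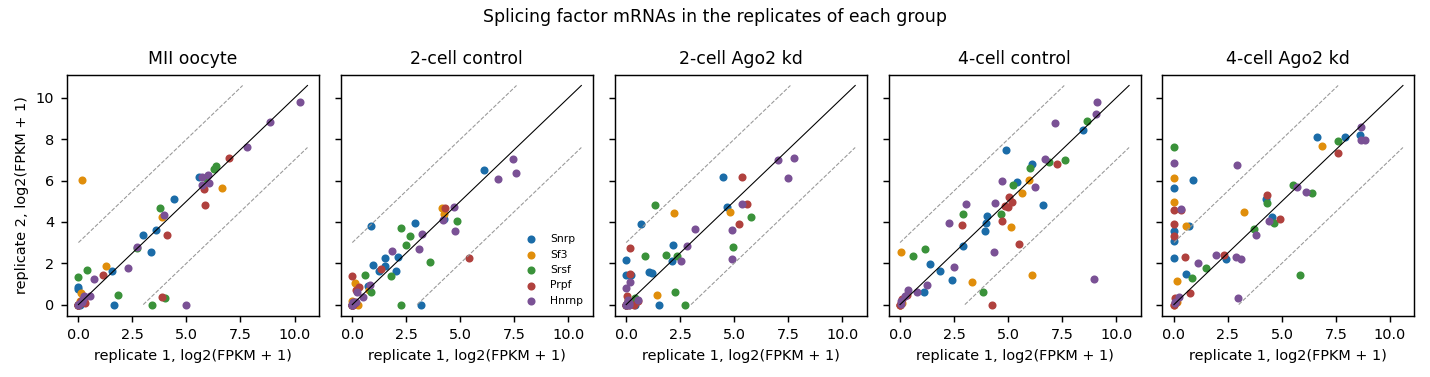
Replicate 1 (horizontal) against replicate 2 (vertical) of the 62 members in each group, both as log2(FPKM + 1), with the line of equality and dashed lines at a difference of 3. In the 4-cell Ago2 kd panel 16 tested members lie beyond the dashed lines, 15 of them with the lower value in replicate 1, against 2 to 5 in the other groups.

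Levels within the families covered a wide range. The highest members over the 5 groups were Snrpc and Snrpb, Sf3b6 and Sf3b2, Srsf2 and Srsf7, Prpf38a and Prpf38b, and Hnrnpk and Hnrnpa2b1. Snrpd3, Srsf4, Prpf38b, Hnrnpa2b1, Hnrnpdl and Hnrnpk had at least 10 FPKM in all 10 libraries, and 15 members had at least 1 FPKM in all. Prpf38b, a factor related to the one that activates the tri-snRNP, fell from 123 and 135 FPKM in oocytes to 18.6 and 24.4 FPKM in 2-cell controls (-2.54 ± 0.40, adjusted p = 0.00543). It was at 32.2 and 36.0 FPKM in 4-cell controls and at 29.1 and 16.6 FPKM in 4-cell Ago2 kd embryos. The fall of Prpf38b from the oocyte was not called under any of the 3 scalings. Prpf38a was called higher at the later step, from 41.1 and 3.82 to 155 and 112 FPKM (3.22 ± 0.95, adjusted p = 0.0354), and was at 190.2 and 163 FPKM in 4-cell Ago2 kd embryos. Hnrnpk was level at the later step, with 141 and 439.9 FPKM in 4-cell controls and 405 and 386 FPKM after Ago2 kd.

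The 7 members that were not tested were Sf3b3, Prpf19, Prpf40b, Hnrnpll, Hnrnpm, Hnrnpul1 and Hnrnpr. The first 6 never reached 1 FPKM, although Prpf19, Sf3b3 and Hnrnpm are core factors. Hnrnpr was at most 0.529 FPKM in 9 libraries and at 23.3 FPKM in 4-cell Ago2 kd replicate 2. Snrpert, the Snrpe pseudogene, stood at 0.643 to 14.3 FPKM and Snrpe at 0 to 7.49 FPKM, and reads of the pair may be split between them. Near-identical copies, defined by at least 95% identity over at least 50% of the transcript, were found elsewhere in the genome for Snrpa, Sf3b4, Srsf5 and Hnrnpf. For Snrpf and Srsf4 the only such match was a gene on the other strand of the same locus, Ccdc38 and Gm12992. A gene on the other strand overlaps 25 members.

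Other splicing genes, taken from lists outside the name rule, were examined in the same fit. From 2-cell to 4-cell control, 9 of 14 tested genes of snRNP assembly rose (64.3%, against 21.1% of all genes) and 0 fell (against 17.5%), with a median of 2.07, against 0.24 in all genes. Wdr77, part of the complex that methylates Sm proteins, went from 0.233 and 1.18 to 134 and 142 FPKM (6.41 ± 0.43, adjusted p = 0.000106), and was at 222 and 175 FPKM after Ago2 kd. Snupn, which imports snRNPs into the nucleus, went from 0 to 109 and 121 FPKM (adjusted p = 0.0259), while Ago2 kd replicates 1 and 2 of that stage held 0 and 110.03 FPKM. Of 47 other spliceosome components 9 rose (19.1%, near the background) and 2 fell (4.26%), with a median of 0.78. Of 35 regulators outside the families 11 rose (31.4%) and 2 fell (5.71%), with a median of 1.18. Among 8 SR protein kinases, phosphatases and importers, Ppm1g (adjusted p = 0.00898) and Tnpo3 (adjusted p = 0.000987) rose and 1 gene fell. Without 4-cell control replicate 2 the Ppm1g call was lost (0.0554), and the Snupn call was lost without any 1 of the MII oocyte, 2-cell control or 4-cell control libraries (adjusted p from 0.0557 to 0.0988). Tnpo3, which carries SR proteins into the nucleus, went from 1.91 and 0.935 to 53.6 and 74.1 FPKM. Of the 6 exon junction complex genes 2 rose, Casc3 and Alyref, and of the 3 genes of nonsense-mediated decay 1, Smg8.

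From MII oocyte to 2-cell, where 14.2% of all genes were called lower and 6.54% higher, the lists differed. In the kinase list 3 of 8 genes fell and 1 rose, with a median of 0.25. Clk1, which phosphorylates SR proteins, went from 251.4 and 344 to 0.188 and 0.320 FPKM (-7.88 ± 1.73, adjusted p = 0.0194), and Clk3 from 26.5 and 30.7 FPKM to 0 in both 2-cell controls (adjusted p = 0.0146). In each of the 2, leaving out any 1 of the 4 libraries compared ended the call (adjusted p from 0.0629 to 0.108). Of the regulators 8 of 35 fell (22.9%, median -0.75) and 1 rose, and Sfpq and Raly were among the falls. Of the other spliceosome components 4 of 47 fell (8.51%, median 0) and 1 rose, and Zcrb1 and Rbm17 were among the falls. Without any 1 of the 4 libraries compared the calls of Sfpq, Raly and Zcrb1 were lost (adjusted p from 0.0746 to 0.168), and over 18 alternatives they were kept in 12, 7 and 8, whereas Rbm17 was kept in 17. Smn1, which loads Sm proteins onto snRNA, fell from 85.7 and 94.3 to 10.04 and 13.1 FPKM (-2.86 ± 0.43, adjusted p = 0.00444), and snRNP assembly as a list had 3 falls and 1 rise among 14, with a median of 0.13. The exon junction list had 1 fall and 1 rise among 6. Smg8 fell from 76.9 and 74.2 to 1.26 and 0.998 FPKM (-5.17 ± 0.45, adjusted p = 0.000536).

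After Ago2 kd at the 4-cell stage, 5 of the 112 genes tested in these lists fell (4.46%, against 2.77% of all genes) and 1 rose (0.893%, against 1.23%). Casc3, a core protein of the exon junction complex, was listed at 0 in all earlier libraries, at 13.2 and 17.0 FPKM in 4-cell controls and at 0.0312 and 0 FPKM in 4-cell Ago2 kd embryos (-3.98 ± 0.23, adjusted p = 0.000259). Alyref, the mRNA export adaptor, was at 31.3 and 65.2 FPKM in controls and, after Ago2 kd, at 0 in each library (-5.53 ± 0.42, adjusted p = 0.000676). In 2-cell embryos it was at 5.77 and 4.88 FPKM in controls and again at 0 in each Ago2 kd library (-2.66 ± 0.42, adjusted p = 0.0594). Sf1, which recognises the branch point before SF3, was at 27.5 and 32.3 against 0.596 and 1.23 FPKM (-4.03 ± 0.62, adjusted p = 0.0168), and Syncrip, related to Hnrnpr, at 5.80 and 6.15 against 0.196 and 0.0343 FPKM (-2.65 ± 0.19, adjusted p = 0.000628). Celf1, with 3.44 and 4.27 against 0.989 and 0.691 FPKM, passed at 0.0429, and Lsm5, with 1.18 and 0 against 5.34 and 4.07 FPKM, was the gene that rose (adjusted p = 0.0361). Casc3, Alyref and Syncrip were kept in 17 of 18 alternatives, Sf1 in 13, Lsm5 in 2 and Celf1 in 1. The calls of Casc3, Alyref and Syncrip were lost in limma when only the 4-cell libraries were fitted (adjusted p = 0.235, 0.212 and 0.252). Their groups at or near 0 add almost no spread to the shared estimate behind SE and p. The Sf1 call was lost without either 4-cell control or 4-cell Ago2 kd replicate 1 (adjusted p = 0.0562, 0.0711 and 0.0589). Casc3 and Syncrip were listed at 0 in every 2-cell library, so no fall could be measured at that stage and their interaction terms only repeat the 4-cell difference. Both reached 1 FPKM only in the 4-cell controls, so like Prpf4 they passed the filter only through the group they were compared with. Sf1 was at most 0.493 FPKM in the 2-cell controls and, after Ago2 kd at that stage, at 0.154 and 3.38 FPKM, and its interaction (adjusted p = 0.0463) bears the same limit. For Alyref, which was measured at both stages, the interaction did not pass (adjusted p = 0.0669).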

How the data were processed

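RNA-seq libraries of 5 groups with 2 replicates each were used. The deposited values are FPKM for 1 row per gene name, which the authors made by trimming reads with Trim Galore, aligning them with HISAT2 2.1.0 to GRCm38 and estimating expression with StringTie. The submitters' processing notes also name CASAVA 1.4. How transcripts were reduced to 1 row per gene name, and whether the libraries keep the strand, is not given in the sources used here. The authors tested counts with DESeq2, and no counts were used here.

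Genes that reached 1 FPKM in 2 or more libraries were kept (8726 of 21437) and log2(FPKM + 1) was fitted with limma 3.58.1 in R 4.3.3, with 5 group means over all 10 libraries, a variance trend and 5 residual degrees of freedom. Tests were two-sided with Benjamini-Hochberg adjustment over all genes tested. An exact permutation test of 2 against 2 libraries cannot go below p = 0.333, so none was used. Because of the added 1, a difference understates the change of low genes. FPKM carry no read depth, so no counting interval is given. Figures and joins used Python 3.11.15, pandas 2.3.3 and matplotlib 3.10.9, and near-identical transcripts were found with blastn 2.17.0. The named genes were the 2 members of each family with the highest mean, the 4 largest called rises and falls of each control step without overlap of the groups, and every member called after Ago2 kd (filled to 4 a direction with members at an unadjusted p below 0.05) or in the interaction. Up to 2 called genes of each other list were added per comparison. Genes named beyond these were chosen after their values were seen. The members and lists were chosen with earlier results of these data known. Alternatives were another pseudocount (0.1), no filter, 3 scalings, the replicate block, no variance trend, fitting only the groups compared, and leaving out each library.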

Additional observations from a re-analysis of the deposited data

Results flagged for a closer look

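Prpf4 and Hnrnpab stood out because the interaction term in limma, the Ago2 kd effect at the 4-cell minus that at the 2-cell stage, passed the threshold. For Prpf4 the 4-cell effect minus the 2-cell effect was -4.69 on the log2(FPKM + 1) scale (SE 0.35, adjusted p = 0.00204). For Hnrnpab it was -3.45 (SE 0.41, adjusted p = 0.00889). Both calls were kept in all 18 alternatives, with adjusted p from 0.00088 to 0.0137 for Prpf4 and from 0.00519 to 0.0329 for Hnrnpab. In both genes the 2 Ago2 kd libraries lay below the 2 controls at the 4-cell stage. Prpf4 was under 0.1 FPKM and Hnrnpab was listed at 0 in every 2-cell library, so neither could fall there, and the interaction repeats the 4-cell difference (-4.71 and -3.45) without showing that the stages respond differently. Prpf4 also passed the filter only through the 4-cell controls. In both genes the groups at or near 0 add almost no spread to the estimate behind these SE and p.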

How the results depend on the processing

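No named difference changed sign under any alternative, but the balance of higher and lower calls did move. From MII oocyte to 2-cell control, 9 lower and 3 higher became 3 lower and 3 higher under each scaling. For Ago2 kd at the 2-cell stage, the larger side of the unadjusted counts changed when some libraries were left out. The members' median after Ago2 kd at the 4-cell stage went from -0.40 to 0.09 without 4-cell Ago2 kd replicate 1. From MII oocyte to 2-cell control, 5 members were higher with only the groups compared in the fit, and 3 were lower under the same summed FPKM, the same median and the same quantiles, against 3 and 9. Of all genes 7.17%, 9.09% and 8.96% were lower under these scalings, against 14.2%. From 2-cell to 4-cell control, 12 were higher with no filter and 14 with the same median, against 22. Of all genes 15.8% were higher with the same median, against 21.1%. From MII oocyte to 4-cell control, 1, 5 and 4 were lower with the same summed FPKM, median and quantiles, against 8. Of all genes 19.7%, 23.4% and 23.2% were lower under these scalings, against 26.3%. For Ago2 kd at the 2-cell stage at an unadjusted p, 2 were higher with only the groups compared, and 2 were lower with quantiles and 1 with only the groups compared. For Ago2 kd at the 4-cell stage, 0 were lower at an adjusted p with only the groups compared. At an unadjusted p, 2 were higher with a pseudocount of 0.1, the same summed FPKM, no variance trend or only the groups compared, 5 with the same median and 3 with quantiles, and 4 were lower with only the groups compared. The cause was not tested.

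Leaving out 1 library at a time gave 1 to 3 higher and 3 to 9 lower from MII oocyte to 2-cell, 9 to 24 and 1 to 2 from 2-cell to 4-cell, and 10 to 19 and 3 to 8 from MII oocyte to 4-cell. For Ago2 kd it gave 0 to 1 and 0 to 0 at the 2-cell stage (unadjusted 1 to 3 and 0 to 4), 0 to 1 and 2 to 8 at the 4-cell stage (unadjusted 1 to 5 and 6 to 16), and 0 to 1 and 2 to 5 for the interaction.

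Without Hnrnpk the members' share was 0.381% and 0.375% in MII oocytes, 0.336% in 2-cell control replicate 1 and 1.13% in 4-cell Ago2 kd replicate 1. Without Hnrnpab and Srsf2, chosen after seeing the data, it was 1.18% and 1.35% in 4-cell controls. Without mitochondrial and ribosomal RNA rows it was 1.72% in 4-cell control replicate 1 and 1.51% and 1.29% in the 4-cell Ago2 kd libraries.

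With the replicate number as a block, 2 members were lower after Ago2 kd at the 2-cell stage and 2 higher at the 4-cell stage, at an unadjusted p. From 2-cell to 4-cell control 19 were higher with the block, against 22. Same-numbered libraries did not deviate together (r = 0.0924 between 2-cell control and Ago2 kd, -0.0931 at the 4-cell stage), so the numbers do not pair the samples.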
